A study of Mus musculus with 16 samples.

Results

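Twin H3K4me1 summits are neighbouring summits of one list that lie 2000 bp or less apart, with both summits of each such pair taken as members. They were sought in a list of H3K4me1 summits from unstimulated mouse dendritic cells and in one from unstimulated 3T3 cells, an established mouse fibroblast line. The rule found 3074 pairs in dendritic cells and 2378 in 3T3. These pairs comprised 5997 of the 78214 autosomal dendritic cell summits (7.67%, 95% interval 7.48 to 7.86) and 4678 of the 80558 autosomal 3T3 summits (5.81%, 5.65 to 5.97), out of 161656 summits listed in all. Members were chosen by position alone, that is, by the distance between summits of the same list, so their number and spacing are descriptions, while the scores within a list and the summits of the other list did not enter the choice.

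The 16 samples of the series cover ChIP-seq for H3K4me1, H3K27ac and acetylated H4, and input DNA, each with and without a stimulus in dendritic cells and 3T3. The dendritic cells were grown from bone marrow progenitors infected with a retrovirus that expresses a hairpin against the histone demethylase JmjD2d, and were kept for 4 days in GM-CSF together with SCF, followed by 4 days in which GM-CSF was the only one of these. The 3T3 cells were grown under standard conditions, with no hairpin named. Both were left unstimulated, so neither LPS nor TNF-alpha was given. Each cell type is 1 library, and differences due to cell type and to the hairpin cannot be told apart. One label field of the 3T3 sample gives dendritic cells as its cell type, but title, description and file header all say 3T3, which was followed. The lists hold no gene names by which either cell type could be checked against markers.

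H3K4me1 is monomethylation of lysine 4 of histone H3, laid down by methyltransferases that are recruited to enhancers. At many active enhancers, transcription factors hold open a short stretch without nucleosomes, and the marked nucleosomes on its sides give a profile with a peak on each flank and a valley between them. At active promoters the nucleosomes next to the gene start carry trimethylation instead, and H3K4me1 is displaced to the sides, which also leaves a valley. Twin summits are therefore a form in which either kind of element could appear in a summit list. Whether the pairs found here flank such a valley was not tested. Their median spacing was 1657 bp in dendritic cells and 1709 bp in 3T3. A summit list has no signal between its summits, so the depth of a valley could not be measured here. Each summit had its own peak number. The labels and headers do not say whether broad peaks were split into several summits, so a pair may be separate peaks or parts of one.

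The spacing of the pairs showed no favoured distance below 2000 bp. The closest pair had a spacing of 566 bp in dendritic cells and of 577 bp in 3T3. The median spacing was 1657 bp in dendritic cells (25th to 75th percentile, 1425 to 1843 bp) and 1709 bp in 3T3 (1504 to 1875 bp). Pairs 1000 bp or less apart were few, with 189 in dendritic cells (6.15% of pairs) and 79 in 3T3 (3.32%). Pairs more than 1500 bp apart were the majority, at 67.8% in dendritic cells and 75.2% in 3T3. Counted in steps of 250 bp, neighbouring summits became more frequent up to and past the limit. In dendritic cells there were 35 pairs at 501 to 750 bp, 257 at 1001 to 1250 bp and 1169 at 1751 to 2000 bp. In 3T3 the same steps held 9, 144 and 1059 pairs. The most filled step was 3251 to 3500 bp in both lists, with 1769 neighbouring summits in dendritic cells and 1776 in 3T3. The twin pairs thus form the rising edge of a single broad distribution of spacings, not a group set apart from it. They make up 3.93% of all distances between neighbouring autosomal summits in dendritic cells (3.80 to 4.07) and 2.95% in 3T3 (2.84 to 3.07).

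**Figure D1:**
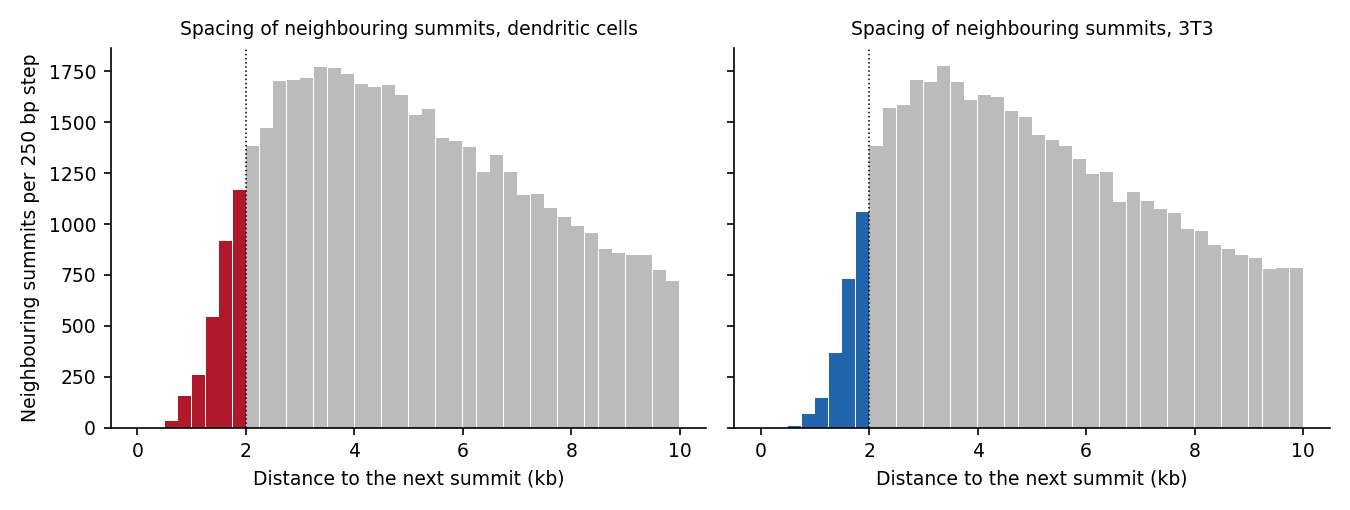
Number of neighbouring autosomal summits (vertical axis) by their distance in kb (horizontal axis, steps of 250 bp) in dendritic cells (left) and 3T3 (right). Coloured bars are twin pairs, grey bars are wider neighbours, and the dotted line marks the limit of 2000 bp. The counts climb through the limit to 1769 and 1776 at 3251 to 3500 bp, with no separate peak among the twin pairs.

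Pairs just inside and just outside the limit looked alike. The 493 dendritic cell pairs 1901 to 2000 bp apart had a median score of 30 and a median ratio of lower to higher score of 0.68, and the 542 neighbours at most 100 bp beyond the limit had 31 and 0.69. In 3T3 the 481 pairs just inside had 29 and 0.71, and the 541 neighbours just outside had 29 and 0.72. The other list had no summit within 1000 bp of the span in 48.1% of the pairs just inside and 43.5% of those just outside in dendritic cells, and in 45.3% and 41.4% in 3T3.

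Twin summits were rarely strung into longer series. Of the 2923 separate groups in dendritic cells, 2786 held 2 summits (95.3%), 126 held 3 and 11 held 4 or more. Of the 2300 groups in 3T3, 2225 held 2 summits (96.7%), 73 held 3 and 2 held 4 or more. Within the groups of 3, the middle summit had the lowest score in 49 of 126 dendritic cell groups (38.9%) and in 33 of 73 3T3 groups (45.2%). It had the highest score in 23 (18.3%) and 14 (19.2%). The median score of the middle summit was 24 in both lists, against 29 for the outer summits in dendritic cells and 28 in 3T3. In these few groups the outer summits thus tended to stand higher than the one between them. No groups of wider neighbours were set beside them, so the tendency cannot be called particular to twin summits.

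The longest group, in dendritic cells, ran over 7875 bp on chromosome 9 from 109836200 to 109844075. Its 6 summits had scores of 30, 22, 22, 26, 20 and 26, and 3T3 had 3 summits there with scores of 20, 19 and 19. All of these scores lay below the medians of their lists, so this was a long stretch of low summits marked in both cell types. The next dendritic cell group held 5 summits on chromosome 8 from 109819627 to 109826611, with scores of 23, 21, 23, 18 and 20, and 3T3 had 1 summit there with a score of 40. In 3T3 a group of 4 lay on chromosome 5 from 151927513 to 151932488, with scores of 33, 22, 20 and 46, and dendritic cells had no summit there. A group of 3 lay on chromosome 8 from 87546184 to 87549806 in 3T3, with scores of 24, 86 and 59, beside 2 dendritic cell summits with scores of 63 and 33. The remaining long group was found in both lists at the start of the summits of chromosome 9. In dendritic cells it had 4 summits from 3026925 to 3032031 with scores of 231, 28, 143 and 128. In 3T3 it had 5 summits from 3026924 to 3032031 with scores of 212, 28, 131, 37 and 130. The scores and positions at this site were nearly the same in both lists, and input DNA, which would show how many reads pile up there without an antibody, was not analysed here.

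Members of twin pairs had low scores. The score is taken as the height of the signal at the summit, although the file header does not name it, and its scale is that of each list. The median score was 29 for twin summits, against 37 for the other summits of dendritic cells. It was 27 for twin summits, against 34 for the other summits of 3T3. The middle of the distribution ran from 23 to 39 for twin summits in dendritic cells, against 26 to 56 for the others, and from 22 to 36.8 in 3T3, against 25 to 51. The share of summits that belonged to a pair fell at each step from the lowest to the highest decile of scores. In dendritic cells it was 12.03% in the lowest decile, 8.73% in the fifth and 1.70% in the highest. In 3T3 it was 9.71, 6.41 and 1.10%. In every decile the share was larger in dendritic cells. Strong H3K4me1 summits thus seldom had a second called summit within 2000 bp. The widths of the peaks were not analysed here.

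The partners of a pair were closer in score than neighbouring summits as a whole. At most heights they were no closer than distant neighbours of the same height. The lower score was a median 0.703 times the higher in dendritic cells (0.692 to 0.714) and 0.720 times in 3T3 (0.711 to 0.731). Neighbours over 2 and up to 5 kb apart had 0.639 (0.634 to 0.643) in the dendritic cell list and 0.650 (0.646 to 0.655) in 3T3, and those over 5 and up to 10 kb apart had 0.615 and 0.620. The scores differed at least 2-fold in 630 twin pairs of dendritic cells (20.5%, 19.1 to 22.0), against 30.9% of all neighbouring summits. In 3T3 they differed at least 2-fold in 445 twin pairs (18.7%, 17.2 to 20.3), against 29.6% of all neighbours. With the height held fixed the values came close to those of neighbours over 20 kb apart. Among dendritic cell pairs with a geometric mean score of 20 to 25, the median ratio was 0.800 (0.786 to 0.815) in 706 twin pairs and 0.786 (0.783 to 0.792) in the distant neighbours. At 30 to 40 it was 0.615 (0.600 to 0.636) in 969 twin pairs and 0.614 (0.604 to 0.622) in the distant neighbours. In 3T3 the ratios at 30 to 40 were 0.634 (0.610 to 0.667) in 656 twin pairs and 0.617 (0.610 to 0.625) in distant neighbours. An exception was the range of 40 to 60 in 3T3, where 279 twin pairs had 0.627 (0.585 to 0.660) and distant neighbours 0.552 (0.542 to 0.564). At the same range in dendritic cells the intervals overlapped, with 0.582 (0.544 to 0.615) in twin pairs and 0.578 (0.567 to 0.587) in distant neighbours. Against the nearer neighbours, over 2 and up to 5 kb apart, twin pairs had the higher ratio in several ranges. In dendritic cells the intervals were apart at 25 to 30, with 0.717 (0.697 to 0.733) against 0.677 (0.667 to 0.688), and at 30 to 40, with 0.615 (0.600 to 0.636) against 0.587 (0.581 to 0.596), and they overlapped at 40 to 60. In 3T3 they overlapped at 25 to 30, with 0.706 (0.688 to 0.727) against 0.700 (0.688 to 0.710), and were apart at 30 to 40, with 0.634 (0.610 to 0.667) against 0.595 (0.585 to 0.604), and at 40 to 60, with 0.627 (0.585 to 0.660) against 0.549 (0.540 to 0.558).

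**Figure D2:**
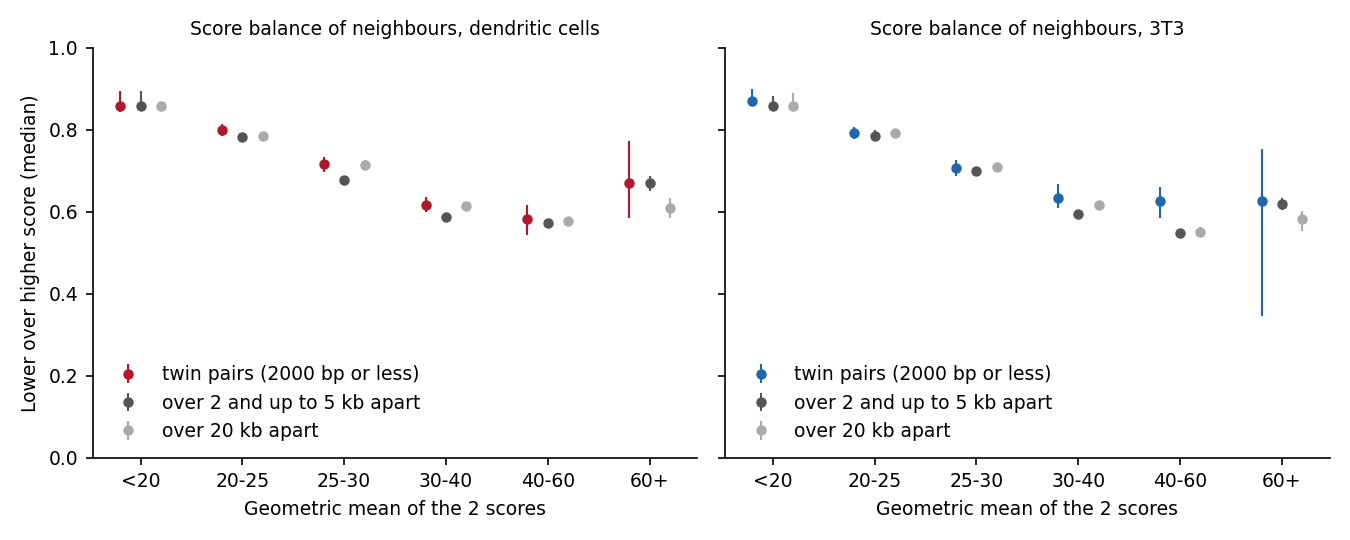
Median ratio of the lower to the higher score (vertical axis) by the geometric mean of both scores (horizontal axis) in dendritic cells (left) and 3T3 (right), for twin pairs (coloured), neighbours over 2 and up to 5 kb apart (dark grey) and neighbours over 20 kb apart (light grey). Bars are 95% intervals of the median. Twin pairs follow the distant neighbours at most heights, and stand above them at 40 to 60 in 3T3 (0.627 against 0.552).

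The height of one partner said little about that of the other. Across the 3074 dendritic cell pairs Spearman's rho between the left and the right score was 0.05, and across the 2378 3T3 pairs 0.04. Neighbours over 2 and up to 5 kb apart had 0.005 and 0.01, and those over 10 and up to 20 kb apart had 0.14 and 0.13, so twin pairs lay between these classes. These coefficients describe summits of 1 library each. The left summit was higher in 1469 dendritic cell pairs, the right in 1512, and 93 were tied. In 3T3 the left was higher in 1135, the right in 1158, and 85 were tied. Neither side was thus favoured over all pairs. Among the 189 closest dendritic cell pairs, at 1000 bp or less, the right summit was higher in 109 and the left in 76, whereas in 3T3 it was 38 against 39.

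About as many twin pairs were matched by a summit of the other cell type as were not. The other list was searched from 1000 bp before the left summit to 1000 bp after the right one. Of the dendritic cell pairs, 423 (13.8%, 12.6 to 15.0) had 2 or more 3T3 summits there, 1125 (36.6%, 34.9 to 38.3) had 1, and 1526 (49.6%, 47.9 to 51.4) had none. Of the 3T3 pairs, 333 (14.0%, 12.6 to 15.5) had 2 or more dendritic cell summits, 904 (38.0%, 36.1 to 40.001) had 1, and 1141 (48.0%, 46.0 to 50.01) had none. The division into these classes was thus nearly the same in both directions. Searched in the same way, neighbours at most 100 bp beyond the limit had none in 43.5% in dendritic cells and 41.4% in 3T3. Lacking a summit of the other list was thus common just outside the rule too. Pairs with 2 or more summits of the other list nearby, which need not be a twin pair, were higher than unmatched ones. In dendritic cells the median score was 32 where 3T3 had 2 or more summits, 29 where it had 1 and 27 where it had none. In 3T3 it was 31, 28 and 26. The balance of scores hardly differed between the classes, with median ratios of 0.704, 0.692 and 0.708 in dendritic cells and of 0.731, 0.708 and 0.727 in 3T3.

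Wider pairs were matched more often than close ones. Since a wider pair is also searched over a longer stretch, each summit was also asked for a counterpart within 250 bp, a window that is equal for all. In dendritic cells 11.9% of summits in pairs 1000 bp or less apart had one (8.82 to 15.6), 17.8% at 1001 to 1500 bp (15.9 to 19.7) and 23.4% at 1501 to 2000 bp (22.1 to 24.7). In 3T3 the shares were 13.9% (8.94 to 20.3), 19.5% (17.1 to 22.1) and 23.8% (22.4 to 25.2). The share did not keep climbing beyond the limit, since it was 21.0% (20.3 to 21.7) for neighbours over 2 and up to 3 kb apart and 18.2% (17.8 to 18.7) for those over 3 and up to 5 kb apart in dendritic cells. In 3T3 it was 21.8% (21.1 to 22.6) and 18.0% (17.5 to 18.5). Summits spaced by 1501 to 2000 bp thus had counterparts more often than both closer and wider neighbours, up to 5 kb apart. In 3T3 the intervals of this class and of neighbours up to 3 kb apart overlapped. These shares are not matched for height. The median lower and higher scores were 23 and 35 at 1001 to 1500 bp in dendritic cells. They were 24 and 37 at 1501 to 2000 bp, and 26 and 43 for neighbours up to 3 kb apart. In 3T3 they were 22 and 30, 23 and 35, and 25 and 40.

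Twin summits had a counterpart in the other cell type more often than the other summits of their list as a whole. Within 1000 bp of the summit itself, 33.2% of twin summits in dendritic cells had a 3T3 summit (32.0 to 34.4), against 30.7% of the other summits (30.3 to 31.0). In 3T3 it was 33.9% of twin summits (32.6 to 35.3), against 29.7% of the others (29.4 to 30.002). Since low summits are matched less often in both lists, the other summits were also weighted to the score deciles of the twin summits. Their share was then 28.2% in dendritic cells and 27.9% in 3T3. The share of twin summits was the higher one in 8 of 10 deciles in dendritic cells and in 10 of 10 in 3T3, and the intervals were apart in 5 and 6 of them. In the eighth decile of dendritic cells, with scores of 50 to 61, 47.5% of twin summits were matched (42.3 to 52.7), against 35.5% of the others (34.4 to 36.5). In the lowest decile, with scores of 13 to 21, it was 20.2% (17.7 to 22.9) against 21.2% (20.3 to 22.2). In the highest decile of dendritic cells it was 35.3% (27.3 to 44.1) against 36.5% (35.5 to 37.6), so in that list the gap was seen between these ends. One counterpart can fall within 1000 bp of both partners, but none can fall within 250 bp of both, and at 250 bp the shares were 21.2% of the summits of twin pairs against 17.6% of the others in dendritic cells, and 22.6% against 17.0% in 3T3. The shares at 250 bp are not matched for height, and those of neighbours over 2 and up to 3 kb apart, given above, were close to those of the twin pairs (21.0% in dendritic cells and 21.8% in 3T3), so the excess was not particular to spacings within the limit.

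**Figure D3:**
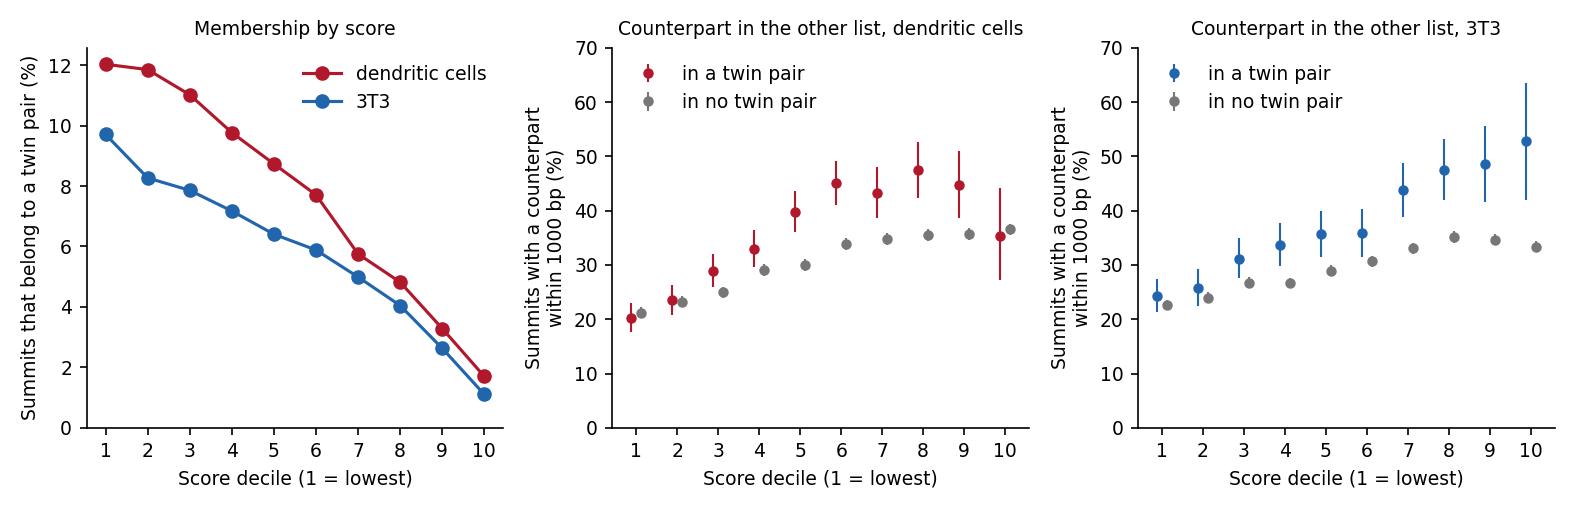
Left, share of autosomal summits that belong to a twin pair (vertical axis) by score decile (horizontal axis, 1 is the lowest) in dendritic cells and 3T3. Middle and right, share of summits with a summit of the other list within 1000 bp by score decile, for summits in a twin pair (coloured) and in none (grey), with exact 95% intervals. Membership falls to 1.70 and 1.10% in the highest decile, and twin summits lie above the others in 8 deciles of dendritic cells and 10 of 3T3.

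Where the other cell type had a single summit, it lay beside one of the partners and seldom between them. The position of each single counterpart was expressed as a fraction of the pair's spacing. Zones of equal length, each 1 of 3 equal parts of the spacing, were laid around the left partner, around the right partner and in the centre between them. Of the 1125 3T3 summits that were alone at a dendritic cell pair, 742 (66.0%, 63.1 to 68.7) lay in the zone of a partner, with 373 at the left and 369 at the right. The central zone held 53 (4.71%, 3.55 to 6.12). A further 75 lay between these zones, and 255 lay outside the pair. Of the 904 dendritic cell summits that were alone at a 3T3 pair, 599 (66.3%, 63.1 to 69.3) lay at a partner, with 289 at the left and 310 at the right, and 37 (4.09%, 2.90 to 5.60) in the central zone. The median distance to the nearer partner was 145 bp for dendritic cell pairs and 146 bp for 3T3 pairs. A single summit of the other cell type centred between the partners was thus uncommon, and the usual case was 1 of the partners without the other.

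**Figure D4:**
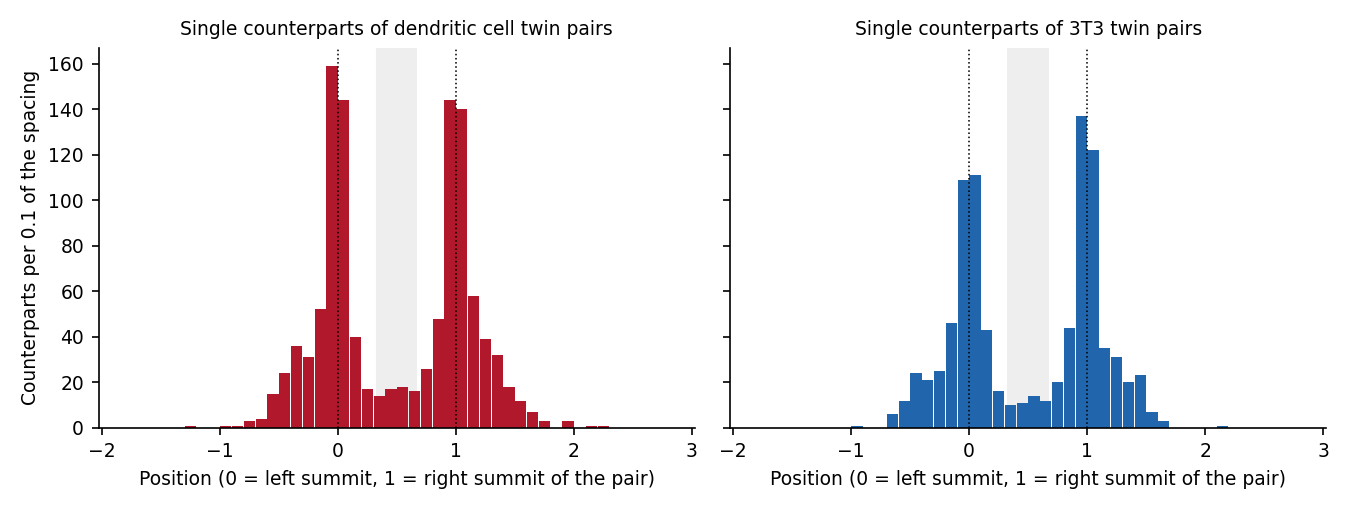
Place of the single summit of the other list at dendritic cell twin pairs (left, 1125 pairs) and 3T3 twin pairs (right, 904 pairs), as counts per 0.1 of the spacing (vertical axis) along the pair (horizontal axis, 0 is the left and 1 the right partner). Dotted lines mark the partners and grey shading the central zone, which holds 53 and 37 counterparts, against 742 and 599 around the partners.

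The partner that was matched was more often the higher one. Leaving out ties, the single counterpart lay nearer to the higher partner in 721 of 1089 dendritic cell pairs (66.2%, 63.3 to 69.0) and in 536 of 872 3T3 pairs (61.5%, 58.2 to 64.7). Higher summits in no twin pair were also matched more often within 1000 bp. Their share was 21.2% in the lowest and 36.5% in the highest decile of dendritic cells, and 22.6% and 33.4% in 3T3. The part of this trend in the preference for the higher partner was not tested. Asked for each partner within 250 bp, 198 dendritic cell pairs were matched at both partners (6.44%), 448 at the left only, 459 at the right only and 1969 at neither. In 3T3 the numbers were 183 (7.70%), 344, 363 and 1488. Within twin pairs, a match at one partner went with a match at the other. In dendritic cells the right partner was matched in 30.7% of pairs whose left partner was, against 18.9% of pairs whose left partner was not, and in 3T3 in 34.7% against 19.6%. Single counterparts were themselves middling in height, at a median percentile of 53.9 of the 3T3 list and 53.3 of the dendritic cell list. The partner nearer to the counterpart stood at a median percentile of 43.8 in dendritic cells and 42.3 in 3T3, and the farther partner at 25.9 and 30.3.

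Summits of the other cell type were sparse in the central part of the interval between partners. The interval was divided into 5 equal parts, and all summits of the other list within it were counted. In dendritic cell twin pairs, the 5 parts held 308, 42, 37, 48 and 324 3T3 summits from left to right, so the central part had 4.87% (3.46 to 6.66). In 3T3 twin pairs they held 287, 41, 27, 45 and 329 dendritic cell summits, with 3.70% (2.45 to 5.34) in the central part. Per kb of sequence this was 0.0377 3T3 summits in the central part of dendritic cell pairs and 0.0344 dendritic cell summits in that of 3T3 pairs. Neighbours over 5 and up to 10 kb apart had 0.0581 and 0.0574 per kb in their central part. Neighbours over 2 and up to 3 kb apart, outside the rule, had 0.0342 and 0.0425, so the sparse centre was not confined to twin pairs. No 3T3 summits lay closer together than 577 bp and no dendritic cell summits closer than 566 bp, and the part of this limit in the sparse centre was not tested.

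Pairs called in both cell types were sought by matching partner to partner. A pair of one list and a pair of the other were joined when their left summits and their right summits were mutually nearest within 1000 bp, so these sites were chosen by position in both lists. This gave 230 sites, or 7.48% of the dendritic cell pairs and 9.67% of the 3T3 pairs. The median spacing was 1652 bp in dendritic cells and 1734 bp in 3T3, and at 180 sites (78.3%) the spacings differed by 250 bp or less. Midpoints of the pairs were a median of 82.2 bp apart, and 312 of the 460 partners (67.8%) lay within 150 bp of their counterpart. Spearman's rho between the spacings was 0.40 across the 230 sites, where the matching itself limits how far spacings can differ. The matching likewise favours close midpoints, so these distances describe the sites that were joined.

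At these sites the scores of dendritic cells and 3T3 were close. Scores of the lists are not scaled to each other, so ratios of dendritic cell to 3T3 score are given relative to the median of all 24061 mutually nearest autosomal summits. A ratio at least 2-fold in favour of dendritic cells was found at 19 of the 460 partners (4.13%), against 11.7% of all mutually nearest summits. A ratio at least 2-fold in favour of 3T3 was found at 26 partners (5.65%), against 12.0% of all mutually nearest summits. The median size of the relative log2 ratio was 0.35 at the partners (0.31 to 0.42) and 0.55 at mutually nearest summits in no twin pair (0.54 to 0.56). With the geometric mean of both scores held at 30 to 40, it was 0.37 at 146 partners (0.29 to 0.46) and 0.64 at 5799 other summits (0.62 to 0.66). At 40 to 60 it was 0.46 at 95 partners (0.34 to 0.55) and 0.68 at 6597 other summits (0.66 to 0.69). At 20 to 30 the intervals overlapped, with 0.31 (0.26 to 0.40) and 0.40 (0.38 to 0.42). High scores are rare at twin summits, which leaves less room for large ratios, and the part of this in the difference was not tested.

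The shifts of the left and the right partner between the cell types were only weakly related. Median scores at these sites were 32 in dendritic cells and 31 in 3T3, in 1 library each. The part of counting error in the ratios was not tested. The relative ratios of the left and the right partner had a Spearman's rho of 0.14 across 230 sites, and had the same sign at 130 of them (56.5%, 49.8 to 63.0). Both partners were at least 2-fold higher in dendritic cells at 0 sites and at least 2-fold higher in 3T3 at 3 sites. The partners differed at least 2-fold in opposite directions at 1 site. The side of the higher partner was kept at most sites. Of 221 sites with no tie, the same partner was the higher one in dendritic cells and in 3T3 at 142 (64.3%, 57.5 to 70.6). No wider neighbours were set beside these sites, so this share cannot be called particular to twin pairs.

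**Figure D5:**
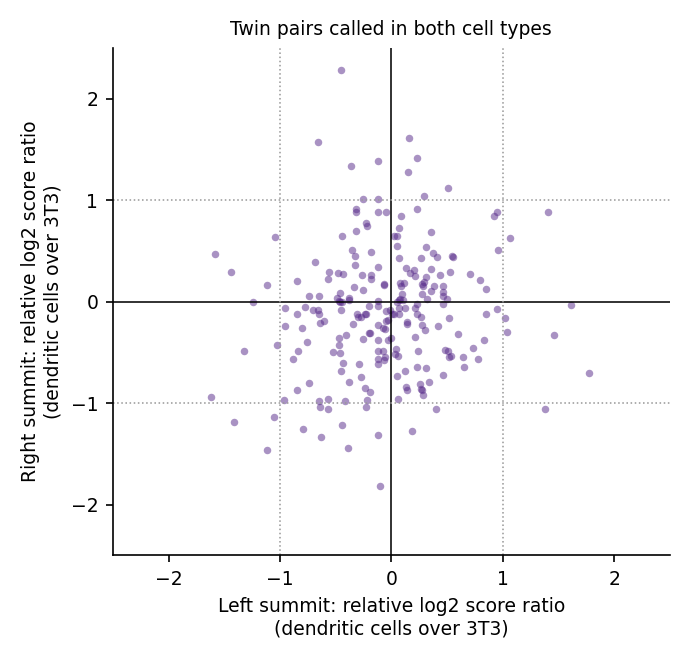
Relative log2 ratio of dendritic cell to 3T3 score at the left partner (horizontal axis) and the right partner (vertical axis) of the 230 sites with a twin pair in both lists. Each point is a site, solid lines mark the median ratio of all mutually nearest summits and dotted lines a 2-fold difference. No point lies beyond 2-fold in favour of dendritic cells at both partners, and 3 lie beyond it in favour of 3T3.

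Of the 230 sites, that whose lowest summit ranked highest within its list lay on chromosome 9. Dendritic cells had summits at 3002990 and 3004807 with scores of 73 and 104, and 3T3 had summits at 3002991 and 3004808 with scores of 65 and 96. The spacing was 1817 bp in both. Positions 1 bp apart are closer than at most sites, as 108 twin summits of dendritic cells (1.80%, 1.48 to 2.17) had a 3T3 summit within 10 bp, against 1.48% of the other summits (1.397 to 1.58). In 3T3 it was 96 twin summits (2.05%, 1.67 to 2.50), against 1.43% of the others (1.34 to 1.52). The next site lay on chromosome 19, with dendritic cell summits at 5636935 and 5638891 scoring 54 and 81, and 3T3 summits at 5636945 and 5638668 scoring 63 and 87. The left partners were 10 bp apart, and the right partner was the higher one in both cell types. A further site on chromosome 19 had dendritic cell summits at 45079881 and 45081858 scoring 57 and 54, and 3T3 summits at 45079932 and 45081920 scoring 43 and 94. Its right partner leaned to 3T3, with a relative log2 ratio of -0.92, while the left partner had 0.29.

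The tallest pairs differed in what the other cell type had. Named pairs are those with the highest lower score in each class. Among dendritic cell pairs with no 3T3 summit nearby, the first lay on chromosome 17 at 31424713 and 31426603, with scores of 89 and 110. The nearest 3T3 summit was 6724 bp away. The second lay on chromosome 14 at 77101354 and 77103118 with scores of 85 and 97, and its nearest 3T3 summit was 3312 bp away. The third lay on chromosome 3 at 135270266 and 135272024 with scores of 82 and 81, and its nearest 3T3 summit was 19804 bp away. All of these summits were above the 90th percentile of the dendritic cell list, and the score ratios were 0.809, 0.876 and 0.988. Choosing pairs by their lower score by itself favours high and balanced pairs. The median ratio of all 1526 unmatched dendritic cell pairs was 0.708.

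Among 3T3 pairs with no dendritic cell summit nearby, the first lay on chromosome 19 at 4927024 and 4928994, with scores of 72 and 74. The nearest dendritic cell summit was 1376 bp away, just beyond the search distance. The second lay on chromosome 18 at 61432978 and 61434785 with scores of 66 and 81, and its nearest dendritic cell summit was 2438 bp away. The third lay on chromosome 7 at 26106865 and 26108663 with scores of 57 and 70, and its nearest dendritic cell summit was 2831 bp away. The ratios of these pairs were 0.973, 0.815 and 0.814, which the choice by lower score again favours. The median ratio of all 1141 unmatched 3T3 pairs was 0.727. Each of the 3 named pairs had a dendritic cell summit within a few kb.

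Unmatched pairs as a class were not especially remote. The 1526 unmatched dendritic cell pairs lay a median of 7441 bp from the nearest 3T3 summit, and 598 of them (39.2%) had one within 5 kb. The other dendritic cell summits with none within 1000 bp lay a median of 6655 bp away. Of the unmatched pairs 23.4% (21.3 to 25.6) had no 3T3 summit within 20 kb, against 22.4% (22.1 to 22.8) of those other summits. The 1141 unmatched 3T3 pairs lay a median of 9376 bp from the nearest dendritic cell summit, and the other unmatched 3T3 summits 8989 bp. No dendritic cell summit was found within 20 kb in 37.8% (35.0 to 40.7) of these pairs and 35.9% (35.5 to 36.3) of the other summits.

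Among dendritic cell pairs with a single 3T3 summit, the tallest lay on chromosome 7 at 50734331 and 50736089, with scores of 106 and 134. The 3T3 summit, with a score of 100, stood at 50736349, beyond the higher partner. The next lay on chromosome 2 at 154485223 and 154486342 with scores of 78 and 95, and the 3T3 summit, with a score of 56, stood 4 bp from the left partner. The third lay on chromosome 2 at 91795700 and 91796962 with scores of 101 and 69, and the 3T3 summit, with a score of 35, stood at 91797290, beyond the right partner. In 3T3 the tallest such pair lay on chromosome 2 at 118523329 and 118524945, with scores of 69 and 86. The single dendritic cell summit, with a score of 41, stood at 118522836, outside the left partner. A pair on chromosome 17 at 24872950 and 24874831 with scores of 60 and 59 had a dendritic cell summit with a score of 97 at 24872517, also outside the left partner. A pair on chromosome 13 at 81101541 and 81103351 with scores of 58 and 79 had one with a score of 24 at 81104139, outside the right partner. None of these 6 single counterparts stood in the central zone of its pair.

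Among pairs with 2 or more summits in the other list, the tallest dendritic cell pair lay on chromosome 9 at 3030179 and 3032031, with scores of 143 and 128. It belongs to the long group described above, and 3T3 had summits at both of these positions with scores of 131 and 130 and another between them, at 3031112, with a score of 37. The next is the chromosome 9 site at 3002990. The third lay on chromosome 11 at 88812260 and 88813788 with scores of 61 and 70, and 3T3 had summits at 88812015 and 88813884 with scores of 29 and 35. In 3T3 the tallest lay on chromosome 17 at 3082566 and 3084452, with scores of 357 and 84. Dendritic cells had summits at 3082566 and 3084447 with scores of 361 and 26, so the left partners shared their position. The second is again the chromosome 9 site, seen from 3T3. The third lay on chromosome 8 at 87603871 and 87605586 with scores of 67 and 63, and dendritic cells had summits at 87603436 and 87605689 with scores of 53 and 47. The tallest pairs of this class thus included sites with equal positions in both libraries, for which input DNA was not analysed here.

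The pairs were spread over all autosomes. In dendritic cells the share of summits in a twin pair ran from 6.72% on chromosome 1 (6.06 to 7.43) to 8.72% on chromosome 7 (7.94 to 9.56). In 3T3 it ran from 4.72% on chromosome 13 (4.15 to 5.35) to 7.24% on chromosome 17 (6.42 to 8.12). It was larger in dendritic cells on 18 of the 19 autosomes. On chromosome 8, where 3T3 has many summits, 34.5% of the 148 dendritic cell pairs and 53.3% of the 182 3T3 pairs had no summit of the other list. On chromosome 12, where 3T3 has few, it was 89 of 129 dendritic cell pairs and 36 of 60 3T3 pairs. Without the partner, twin summits had a median of 8 further summits of their own list within 50 kb in dendritic cells, as had the other summits, and 7 in 3T3, again as the others. The distance from a group of twin summits to the next summit outside it was a median of 7968 bp in dendritic cells, against 8546 bp for all distances over 2000 bp, and 8999 against 9497 bp in 3T3. The 3T3 twin summits had a median of 8 dendritic cell summits within 50 kb, against 7 for the other 3T3 summits, while the median of 3T3 summits around dendritic cell summits was 7 for both. Twin summits were less often without any further summit of their list within 50 kb, at 1.53% against 2.45% of the other summits in dendritic cells and 1.73% against 2.66% in 3T3.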

How the data were processed

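Per the submitters' processing notes, Bowtie was used for alignment and MACS 1.4 for peaks, with mm9 as the build. Libraries were made with 18 PCR cycles and read as single reads of 36 bp, per the labels' protocols. Per the file headers, peaks had to pass a p of 1e-04, a fixed shift of 150 bp was set, and neither a model nor a local background was used. The authors deposited a 1 bp position and an unnamed score for each summit, taken here as signal at the summit. Peaks were called on single samples. Read depth is unknown, and nothing used here states if input DNA served as a control for calling. An absent summit is one that did not pass calling.

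From these lists, distances between neighbouring autosomal summits (1-based, mm9), classes of the other list and score ratios were computed in Python 3.11.15 with numpy 2.4.6, scipy 1.17.1 and pandas 2.3.3, with figures in matplotlib 3.10.9. Shares carry exact Clopper-Pearson 95% intervals and medians 95% intervals from binomial order statistics. Both take summits as independent and cover counting error only. With 1 library per cell type no test between groups was made and no p-value is given. Score deciles were formed within each list. Named pairs are the 3 with the highest lower score in each class and list, the 3 longest groups of each list and the 3 sites with the highest lowest percentile. The rule for members, the classes and the named pairs were chosen with earlier results of these data known. The computation was tested on 2 simulated lists, in which all 900 planted pairs were recovered. The alternatives were other spacings and search distances, stricter scores, isolated pairs, and omission of very high summits or chromosome 8. The other 14 samples, gene annotation and DNA sequence were not used here, as the reference tables at hand are of another build.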

Additional observations from a re-analysis of the deposited data

Results flagged for a closer look

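Chromosome X lies outside the autosomal rule but held twin pairs too, with 64 in dendritic cells and 33 in 3T3. They are listed because these summits enter no comparison of the report. They comprised 8.11% of the 1578 dendritic cell summits of this chromosome (95% interval 6.81 to 9.57) and 5.00% of the 1300 3T3 summits (3.88 to 6.33). The autosomal shares were 7.67% and 5.81%, and both lie within these intervals. The other list had no summit at 41 of the 64 dendritic cell pairs and at 17 of the 33 3T3 pairs. On the autosomes it had none at 1526 of 3074 dendritic cell pairs (49.6%) and at 1141 of 2378 3T3 pairs (48.0%). The unmatched share of dendritic cell pairs was thus larger on chromosome X than over all autosomes, without an interval for these few pairs. On single autosomes this share ran from 34.5% on chromosome 8 to 69.0% on chromosome 12, so chromosome X lay within their range. The median spacing was 1664 bp in dendritic cells and 1654 bp in 3T3.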

How the results depend on the processing

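The number of pairs moved with the spacing allowed, as did the classes of the other list. At 1000, 1500 and 3000 bp there were 189, 989 and 9335 pairs in dendritic cells and 79, 589 and 8625 in 3T3. At these spacings the share with none in the other list was 66.1, 56.6 and 46.7% in dendritic cells and 63.3, 53.8 and 44.4% in 3T3, and the share with 2 or more was 3.17, 7.89 and 15.2% and 7.59, 8.998 and 16.6%. The share with 1 moved only at 1000 bp, to 30.7 and 29.1%. The median score ratio was 0.673 in dendritic cells at 3000 bp, and in 3T3 0.742, 0.737 and 0.692 at 1000, 1500 and 3000 bp. Among the top-scoring 50% of each list there were 293 and 264 pairs, with ratios of 0.812 and 0.798, none in 55.3 and 54.9%, 2 or more in 9.90 and 7.95%, and 1 in 34.8% for dendritic cells. A score of 20 or more moved the ratio alone, to 0.722 and 0.739. Searching 500 bp gave none in 54.7 and 52.9%, 2 or more in 10.3 and 11.8%, and 1 in 35.3% for 3T3. Searching 2000 bp gave none in 42.7 and 41.5%, 2 or more in 18.3 and 18.8%, and 1 in 39.0% for dendritic cells. Requiring a twin pair in the other list left 7.58 and 9.92% as pairs and put 42.8 and 42.1% with the single summits. Isolated pairs, and omission of chromosome 8 or of the 0.5% of summits with the highest scores, changed no value beyond its interval. Of 98 values under the alternatives, 49 stayed within the interval or 1.5 times the count. The widest spacing includes neighbours outside the rule, and stricter scores leave fewer summits in both lists. Whether these or other causes account for the values that moved was not tested. No paired analysis was possible because each cell type has 1 library, and none could be left out.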
